A study of Mus musculus with 12 samples.

Results

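The lysosomal genes described here are 44 genes of hydrolases, their helper proteins, lysosomal membrane proteins, the vacuolar proton pump and 2 transcription factors of lysosomal genes. They were taken by symbol from a table of 24421 genes, and 43 of them were among the 10899 genes that reached 1 CPM, a gene's reads scaled to a fixed library size, in at least 2 libraries and were tested. The list names 10 proteases, 9 genes of glycosidases and the lipase Lipa, 3 soluble activators and carriers, 7 membrane proteins, 4 subunits of the membrane sector V0 of the pump, 7 subunits of its catalytic sector V1, 2 accessory subunits of the pump, and the factors Tfeb and Tfe3. The libraries were mRNA sequencing of RAW264.7, a mouse macrophage line obtained from ATCC and labelled as strain BALB/c. Parp14 -/- (KO) cells were treated for 2 h with LPS or left untreated, and wild-type (WT) cells were treated for 2 h with LPS and a Jak inhibitor, with LPS, or with the inhibitor, or left untreated. Each of these 6 groups had 2 libraries. LPS is a component of the outer membrane of Gram-negative bacteria that macrophages sense through TLR4, Jak kinases relay interferon and cytokine signals, and Parp14 encodes an ADP-ribosyltransferase. Which inhibitor was used, at what dose, and how many KO clones were made is not stated in the labels, and inhibitor treatment of KO cells was not analysed here.

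Lysosomes are acidic compartments in which hydrolases break down proteins, glycans and lipids taken up by the cell or delivered by autophagy. The proton pump, or V-ATPase, uses ATP hydrolysed by its V1 sector to move protons through its V0 sector, and most of the hydrolases need the resulting low pH. TFEB and TFE3 bind an E-box in the promoters of many lysosomal genes, a motif set called the CLEAR network, and are controlled largely by phosphorylation that holds them in the cytoplasm. In macrophages lysosomes digest engulfed microbes and dead cells and process antigen.

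The E-box was looked for in RefSeq promoter windows on build GRCm38.p6, from 250 bases before to 50 bases after an annotated start. Windows were found for 38 of the 44 genes, 47 in all; those of Atp6v1h, Ctsb, Atp6v1c1, Atp6v1b2, Atp6v1g1 and Ctsh were not used here. The core CACGTG, which reads alike on both strands, was in 14 of the 47 windows (29.8%), against 7.15% of all 32851 windows. The core preceded by T, or followed by A, which is the same TCACGTG on the other strand, was in 13 of the 47 windows (27.7%), against 3.77% of all. The palindrome TCACGTGA, which holds both other forms, was in 7 of the 47 windows (14.9%), against 0.974% of all. These windows belonged to Cln3, Mcoln1, Ctsd, Ctsa, Gla, Atp6v0d1 and Atp6v1a. One 30-base site each of the 3 genes below is shown because Cln3 and Mcoln1 moved in opposite directions with LPS and Atp6v1a was lower in KO cells, while their windows hold the same 8 letters, given in capitals and read 5′ to 3′ on the strand of the gene. The Cln3 site lies at chr7:126583340-126583369 (minus strand), the Mcoln1 site at chr8:3500462-3500491 (plus strand) and the Atp6v1a site at chr16:44139373-44139402 (minus strand).
Cln3: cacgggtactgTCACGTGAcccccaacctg
Mcoln1: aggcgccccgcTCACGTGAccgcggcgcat
Atp6v1a: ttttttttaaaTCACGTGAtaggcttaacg
A match of letters is a description of the window. The windows of Tfeb, Neu1, Lipa, Scarb2, Psap, Gusb and Tpp1, described below, held no CACGTG.

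Levels are in CPM over the reads counted in genes, which numbered 35.9 to 45.7 M per library. A change is a difference in mean log2(CPM + 1), given with its standard error (SE), and a gene was called at a Benjamini-Hochberg adjusted p under 0.05 in limma over all tested genes. With LPS in WT cells the median change over all genes was -0.30, and -0.04 once libraries were rescaled by the median of ratios, a second scaling that centres the genes. LPS calls are therefore given with both scalings, and the genes described in full are those called in the same direction with both. Shares of all genes were taken for each scaling alone. The share called with both scalings was not taken, and it cannot exceed the share with either scaling. Parp14 itself had 35.0 and 40.5 CPM in KO cells with LPS, against 315 and 419 CPM in WT cells with LPS, and 10.0 and 11.97 CPM in untreated KO cells, against 76.4 and 99.7 CPM in untreated WT cells. The 8 macrophage markers looked for all reached 1 CPM, while none of 6 lymphocyte markers and none of 8 stromal, epithelial and endothelial markers did.

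The lysosomal genes differed widely in level. Per kilobase of exon, untreated WT cells held most of the aspartic protease gene Ctsd, with 615 ± 14.9 CPM per kb (SD, n = 2), followed by the cysteine protease genes Ctsz (541 ± 31.2), Ctss (530 ± 71.5) and Ctsb (519 ± 4.32). The SD of Ctss reaches those of the other 3, and the SDs of Ctsz and Ctsb overlap, so among these 4 only Ctsd stood beyond the SDs of Ctsz and Ctsb. At the other end stood Gla, the alpha-galactosidase gene, with 9.95 ± 1.07 CPM per kb, Tfeb with 6.58 ± 0.752 and the aminopeptidase gene Ctsh with 0.927 ± 0.171. Tfe3 had 36.9 ± 0.801 CPM per kb in the same cells, above Tfeb by far more than their SDs. Atp6v0c, the gene of the proton-carrying ring of V0, had 0 to 0.164 CPM in the 12 libraries and was not tested. Between 28.6% and 34.9% of the alignments of a library had no unique position and were counted in no gene; their part in the Atp6v0c value was not tested.

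The first comparison asked how 2 h of LPS moved these genes in WT cells. Tfeb, the sialidase gene Neu1, the acid lipase gene Lipa and Scarb2, the receptor that carries beta-glucocerebrosidase to lysosomes, fell most, and Cln3, a lysosomal membrane protein gene whose human form is lost in juvenile Batten disease, rose to 203% of the untreated level. Among the 43 genes 3 were called higher and 22 lower, where 13.7% and 53.6% of all tested genes were. With the median of ratios 11 were called higher and 9 lower, where 26.4% and 32.5% of all genes were. Called with both scalings were 3 higher and 9 lower, with no share of all genes taken for calls with both. The median change of the 43 genes was -0.20, against -0.30 over all genes, and 0.09 against -0.04 after rescaling.

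Tfeb had 11.3 and 10.4 CPM in WT cells with LPS, against 37.0 and 31.5 CPM in untreated WT cells. Both LPS libraries lay far below both untreated ones, at 31.6% of the untreated mean. The log2 change was -1.57 (SE 0.138, adjusted p = 5.97e-06), and -1.30 after rescaling. Its relative Tfe3 had 143 and 144 CPM with LPS, against 132 and 136 CPM untreated. The Tfe3 groups lay close together without overlap, the gene was not called with the gene-read scaling (0.10, adjusted p = 0.262), and it was called higher after rescaling (0.38, adjusted p = 0.00174).

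All 9 genes of the glycosidase and lipase group were called lower with LPS in WT cells with the gene-read scaling, where 53.6% of all genes were. Of the 9 genes 4 were called lower with both scalings, and 32.5% of all genes were with the median of ratios. Neu1, whose product removes sialic acid, had 28.2 and 24.2 CPM with LPS, against 61.9 and 57.0 CPM untreated. Its LPS libraries were at 44.1% of the untreated mean, and the log2 change was -1.15 (SE 0.0803, adjusted p = 1.32e-06). Lipa, which frees fatty acids and cholesterol from lipoprotein lipids, had 391 and 381 CPM with LPS, against 720.0 and 669 CPM untreated (log2 change -0.85, SE 0.0878, adjusted p = 1.87e-05). The groups of both genes were far apart. Naglu, an enzyme of heparan sulfate breakdown, had 33.5 and 32.6 CPM with LPS, against 58.0 and 48.7 CPM untreated, and Gusb, the beta-glucuronidase gene, had 350 and 381 CPM, against 544 and 530 CPM. Their log2 changes were -0.67 (adjusted p = 0.000876) and -0.56 (adjusted p = 6.22e-05). The other 5 genes of this group, Hexa, Gla, Gaa, Glb1 and Man2b1, had changes between -0.47 and -0.42 and were called with the gene-read scaling only.

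Among the proteases Tpp1, a tripeptidyl peptidase, was the protease gene called lower with both scalings, with 131 and 134 CPM with LPS, against 195 and 181 CPM untreated (log2 change -0.50, SE 0.0585, adjusted p = 3.93e-05). The group of 10 had 3 called lower with the gene-read scaling, which were Ctsa, Lgmn and Tpp1, where 53.6% of all genes were. With the median of ratios Tpp1 was the sole protease gene called lower, where 32.5% of all genes were. Ctsb, Ctsc and Ctsz were called higher, where 26.4% of all genes were. Their changes were 0.28 to 0.33, in place of -0.01 to 0.05 with the gene-read scaling. With the gene-read scaling none of the 3 was called and the sign of Ctsb was negative.

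Among soluble helpers Psap, the precursor of the saposins that present sphingolipids to enzymes, had 792 and 824 CPM with LPS, against 1285 and 1187 CPM untreated (log2 change -0.61, SE 0.0702, adjusted p = 3.64e-05). Of the membrane proteins Scarb2 had 39.8 and 35.9 CPM with LPS, against 67.3 and 59.9 CPM untreated (log2 change -0.73, SE 0.0978, adjusted p = 0.000102). Mcoln1, a lysosomal calcium channel, had 20.4 and 20.7 CPM, against 29.5 and 29.4 CPM (log2 change -0.50, SE 0.0714, adjusted p = 0.000158). None of these groups overlapped. The widely used lysosome marker genes Lamp1 and Lamp2 showed changes of -0.25 (adjusted p = 0.0441) and -0.17 (not called), and Lamp1 turned to 0.03 after rescaling.

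Cln3 went against this direction. It had 136 and 143 CPM in WT cells with LPS, against 65.6 and 71.8 CPM in untreated WT cells. Both LPS libraries stood far above both untreated ones. The log2 change was 1.01 (SE 0.084, adjusted p = 4.15e-06), or 1.30 after rescaling. Cln3 spans chr7:126571207-126585817 on the minus strand and shares 442 exonic bases with Apobr, a lipoprotein receptor gene on the plus strand that rose by 0.45 (adjusted p = 0.000537). The library kit named in the labels does not mark strand, so reads of the shared bases could come from either gene. The read counting set 0.994 to 1.13% of the alignments of a library aside as ambiguous, outside every gene. Whether reads of the shared bases were among these, and their part in the Cln3 value, was not tested. Exons of 11 other lysosomal genes also overlap other annotated genes, most of them on the opposite strand. The shared bases numbered 2137 in Ctsl, with an antisense gene on the opposite strand and a processed pseudogene on the same strand. They numbered 819 in Ctsa, 808 in Ctsd (with a gene on the same strand), 774 in Ctsb, 255 in Hexa and 249 in Lamp1. There were 165 in Glb1 (same strand), 127 in Atp6v1h, 70 in Atp6v0b, 68 in Grn and 10 in Ctsz. The part of the shared bases in the values of these 11 genes was not tested.

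Of the 12 tested genes of the proton pump 2 were called higher with both scalings and none was called lower with both. Of all genes 13.7% were called higher and 53.6% lower with the gene-read scaling, and 26.4% and 32.5% with the median of ratios. Atp6v1h, whose product couples V1 to V0, had 149 and 129 CPM with LPS, against 109 and 113 CPM untreated (log2 change 0.32, SE 0.0785, adjusted p = 0.00472). Atp6v1e1, a subunit of the stalk that joins the sectors, averaged 121.8 ± 0.529 CPM, against 98.7 ± 3.24 CPM (SD, n = 2 each; log2 change 0.30, SE 0.0614, adjusted p = 0.00165). Both were higher in each LPS library than in each untreated one, and both were called with both scalings. The catalytic subunit gene Atp6v1a, with a change of -0.37, and Atp6v1c1, Atp6v0d1 and Atp6ap1, with changes of -0.28 to -0.20, were called lower with the gene-read scaling only, and the last 3 had values of 0.00 to 0.09 after rescaling. The V0 subunit genes Atp6v0a1 and Atp6v0b, not called with the gene-read scaling (0.08 and 0.01), were called higher after rescaling (0.36 and 0.30). The other 4 pump genes were not called with either scaling.

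**Figure D1:**
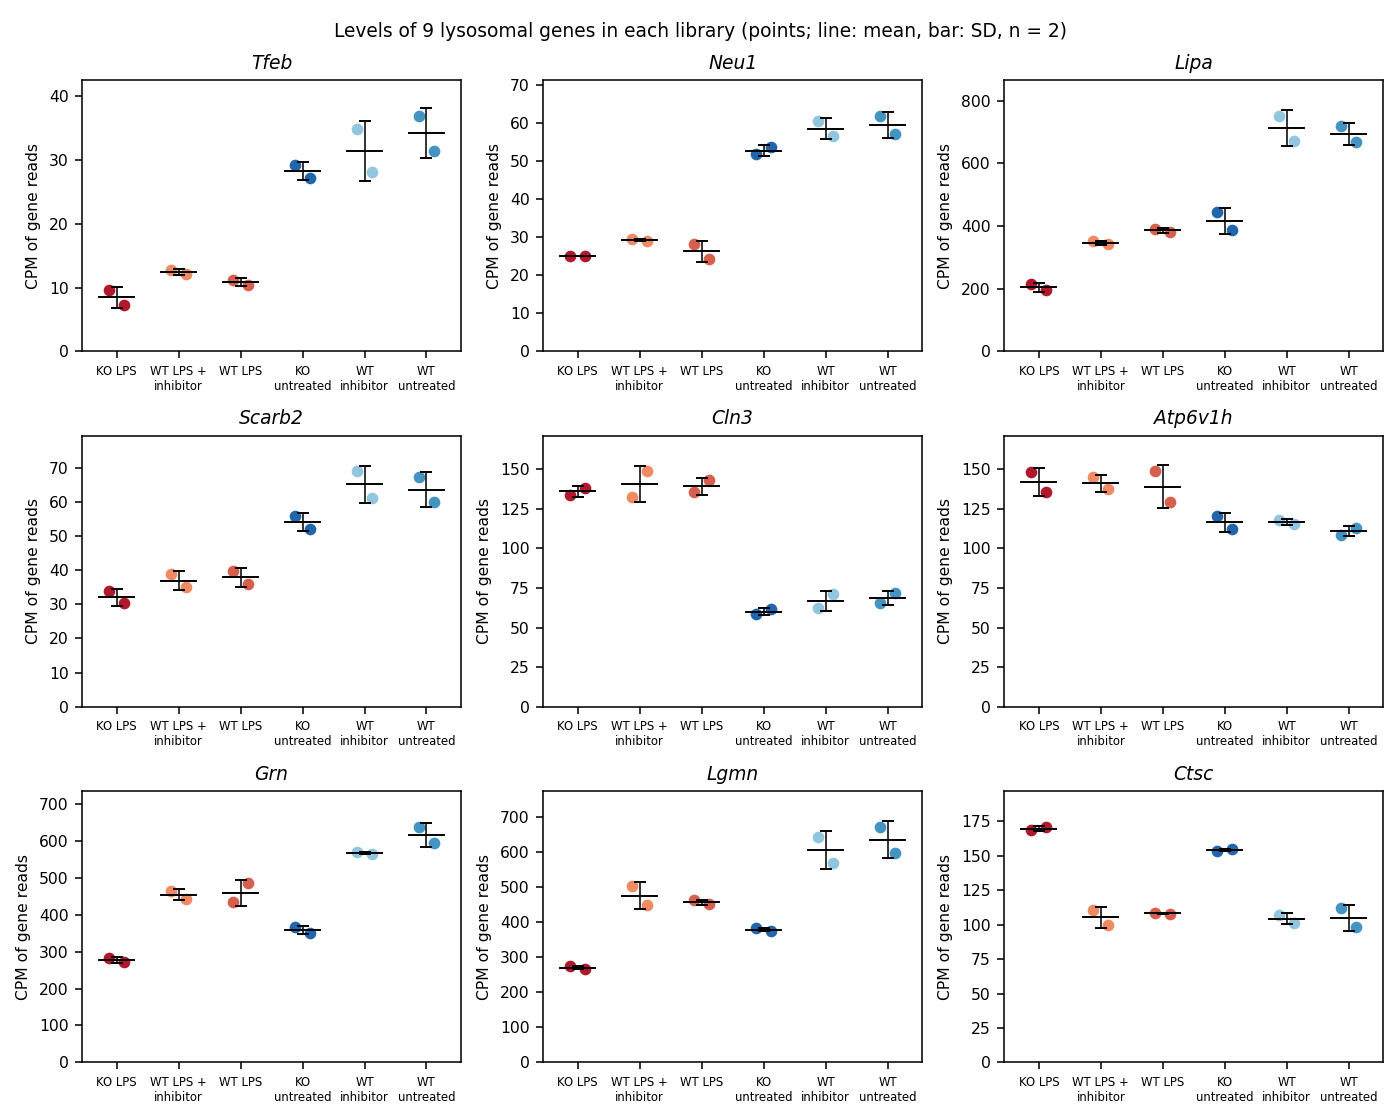
CPM of gene reads of 9 lysosomal genes in each of the 12 libraries, by group; points are libraries, lines are means and bars are SDs (n = 2). The LPS libraries lie below the libraries without LPS for Tfeb, Neu1 and Scarb2 and above them for Cln3, and the KO libraries lie below the WT libraries of the same treatment for Grn and Lgmn and above them for Ctsc.

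**Figure D2:**
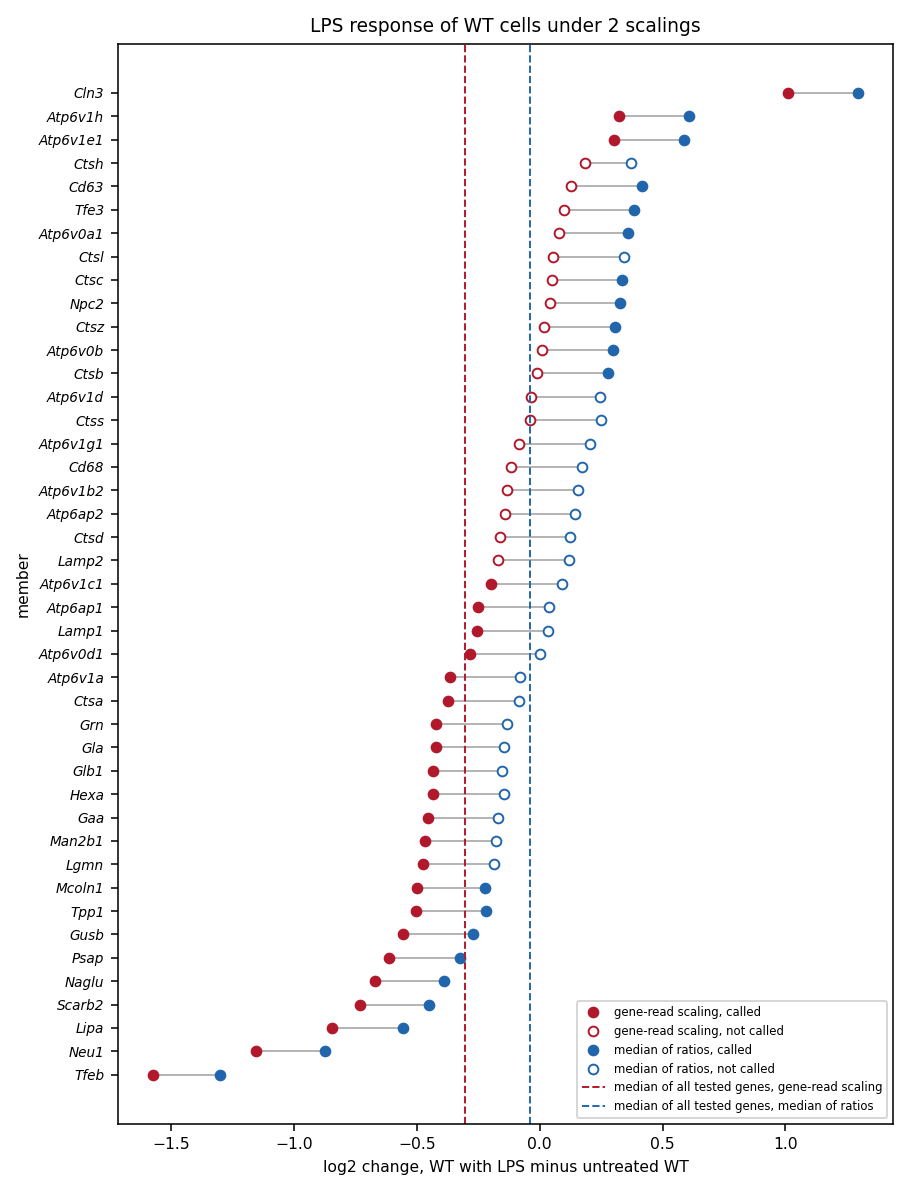
Log2 change with LPS in WT cells of the 43 tested genes, sorted, with the gene-read scaling and with the median of ratios. Filled points are called, and dashed lines mark the median of all tested genes, -0.30 and -0.04; the 9 lowest and the 3 highest genes are filled with both scalings.

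The second comparison asked whether KO cells answered LPS alike. Tfeb, Lipa and Neu1 again fell most and Cln3 rose most. Of the 43 genes 5 were called higher and 19 lower, where 13.9% and 52.7% of all genes were. After rescaling 16 were called higher and 10 lower, where 26.7% and 33.1% of all genes were, and 5 higher and 10 lower were called with both scalings. With the replicate number as a block 9 genes were called higher and 24 lower, and no share of all genes was taken with the block.

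Tfeb had 9.63 and 7.28 CPM in KO cells with LPS, against 29.3 and 27.3 CPM in untreated KO cells (log2 change -1.64, SE 0.138, adjusted p = 4.5e-06). Neu1 had 25.1 and 24.9 CPM, against 51.7 and 53.7 CPM (log2 change -1.05, SE 0.0803, adjusted p = 2.45e-06). Lipa had 214 and 195 CPM, against 446 and 387 CPM (log2 change -1.02, SE 0.0878, adjusted p = 5.2e-06). In all 3 the mean of the LPS libraries was at or under 49.1% of the untreated mean. Cln3 had 134 and 138 CPM with LPS, against 58.6 and 61.7 CPM untreated (log2 change 1.16, SE 0.084, adjusted p = 1.61e-06). Beside these, Scarb2, Psap, Naglu, Gusb, Glb1, Lgmn and Tpp1 were called lower with both scalings, with changes of -0.73 to -0.42, and Atp6v1h, Atp6v1e1, Tfe3 and Cd63, a tetraspanin gene, higher by 0.25 to 0.28. The calls of Cd63, Atp6v1h and Tfe3 were lost when a library of the comparison was left out, with adjusted p up to 0.0789, 0.0744 and 0.08.

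Across the 43 genes the LPS change in KO cells and that in WT cells, which have no library in common, had a Pearson r of 0.983 and a Spearman rho of 0.971, as a description over genes that share the 2 sets of libraries. The difference of the 2 responses was then tested itself. No lysosomal gene was called in limma, where 0.128% and 0.284% of all genes were called higher and lower, and none had an unadjusted limma p under 0.05; edgeR and DESeq2 also called 0. The widest differences were 0.22 for Ctsd and -0.18 for Lipa (adjusted p = 0.99 and 1). With SEs of 0.121 and 0.124 for these differences, a difference of this size was not detectable.

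The third comparison set KO cells against WT cells before any treatment. Nearly all genes that passed the test were lower in KO cells. Grn, the progranulin gene, the asparaginyl protease gene Lgmn, Lipa and Ctsb were at 58.2 to 61.9% of the WT level, while the dipeptidyl peptidase gene Ctsc was at 147%. Of the 43 genes 1 was called higher and 16 lower, where 4.31% and 5.37% of all genes were. After rescaling 1 was called higher and 15 lower, where 4.38% and 4.75% of all genes were, and these 1 and 15 were called with both scalings. With the replicate number as a block 3 were called higher and 35 lower. No share of all genes was taken with the block, so these counts cannot be set against the shares above. The change was negative for 38 of the 43 genes. The median change was -0.29 over the 43 genes and -0.01 over all genes.

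Grn, whose product is cut into granulins in lysosomes, had 366 and 351 CPM in untreated KO cells, against 638 and 593 CPM in untreated WT cells (log2 change -0.78, SE 0.0698, adjusted p = 0.000133). Lgmn had 382 and 375 CPM, against 672 and 598 CPM (log2 change -0.74, SE 0.0848, adjusted p = 0.00054). Lipa had 446 and 387 CPM, against 720.0 and 669 CPM (log2 change -0.74, SE 0.0878, adjusted p = 0.000689). In each of the 3 both KO libraries lay well below both WT libraries. Ctsb, a cysteine protease gene, had 1474 and 1574 CPM in KO cells, against 2476 and 2447 CPM in WT cells (log2 change -0.69, SE 0.0773, adjusted p = 0.000462). Cd63 had 151 and 161 CPM, against 228 and 240 CPM (log2 change -0.58, SE 0.072, adjusted p = 0.000837). Tpp1 had 129 and 123 CPM, against 195 and 181 CPM (log2 change -0.57, SE 0.0585, adjusted p = 0.000271). These groups too were apart.

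Of the proton pump 3 of the 12 tested genes were called lower in untreated KO cells, where 5.37% of all genes were, or 4.75% after rescaling. Atp6v1a had 295 and 287 CPM, against 426 and 409 CPM in WT cells (log2 change -0.52, SE 0.0573, adjusted p = 0.000447). Atp6v1c1, a regulatory V1 subunit gene, had 124 and 120.0 CPM, against 167 and 161 CPM (log2 change -0.42, SE 0.0538, adjusted p = 0.000967). Atp6v0d1, a V0 subunit gene at the joint of the sectors, changed by -0.34 (SE 0.0721, adjusted p = 0.0159). The pump genes that rose with LPS, Atp6v1e1 and Atp6v1h, were not called here, with changes of -0.16 and 0.07. The accessory subunit genes Atp6ap1 and Atp6ap2 had changes of -0.27 and -0.26 and were not called.

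Ctsc, whose product activates granule proteases, was the gene called higher in untreated KO cells, with 154 and 155 CPM, against 112 and 98.2 CPM in WT cells (log2 change 0.55, SE 0.074, adjusted p = 0.00131). Its KO libraries were nearly equal and above both WT libraries. Ctsl, another cysteine protease gene, had 216 and 280 CPM in KO cells, against 162 and 179 CPM in WT cells, a difference of 0.53 that was not called. Neither transcription factor gene was called: the change was -0.26 for Tfeb and 0.10 for Tfe3. The remaining genes called with both scalings, Gla, Man2b1, Gusb, Psap, Mcoln1 and Ctsz, had changes of -0.61 to -0.29, and Cd68, a macrophage lysosomal glycoprotein gene at -0.29, was called with the gene-read scaling only. The calls of these 6 and of Atp6v0d1 were lost when a library was left out, while Grn, Lgmn, Lipa, Ctsb, Cd63, Tpp1, Atp6v1a, Atp6v1c1 and Ctsc kept theirs without each of the 4 libraries.

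The fourth comparison made the same contrast after LPS, in separate libraries. Of the 43 genes 3 were called higher and 16 lower in KO cells with LPS relative to WT cells with LPS, where 6.19% and 7.66% of all genes were. After rescaling 3 were called higher and 15 lower, where 6.4% and 7.74% of all genes were, again 3 and 15 with both scalings. With the replicate block 4 were called higher and 31 lower, and no share of all genes was taken with the block or with a library left out. Without WT replicate 2, 1 was called higher and 9 lower, without WT replicate 1, 1 higher, and without KO replicate 2, 10 lower. Of the genes called lower with both scalings 13 were shared by both contrasts of KO with WT cells. They were Ctsb, Lgmn, Tpp1, Gla, Gusb, Man2b1, Lipa, Psap, Grn, Cd63, Atp6v0d1, Atp6v1a and Atp6v1c1. No share of all genes was taken for calls shared by both contrasts.

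Lipa had 214 and 195 CPM in KO cells with LPS, against 391 and 381 CPM in WT cells with LPS (log2 change -0.92, SE 0.0878, adjusted p = 0.000143). Lgmn had 274 and 268 CPM, against 462 and 451 CPM (log2 change -0.75, SE 0.0848, adjusted p = 0.00038). Grn had 282 and 273 CPM, against 435 and 485 CPM (log2 change -0.72, SE 0.0698, adjusted p = 0.000146). The KO libraries were at 53.0 to 60.3% of the WT level in these 3. Ctsb had 1575 and 1737 CPM in KO cells, against 2402 and 2489 CPM in WT cells (log2 change -0.56, SE 0.0773, adjusted p = 0.00115). Atp6v1a had 226 and 235 CPM, against 318 and 329 CPM (log2 change -0.49, SE 0.0573, adjusted p = 0.00047). The pump's catalytic subunit gene was thus at 71.2% of the WT level after LPS and at 69.8% without treatment.

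Higher in KO cells after LPS were Ctsc, with 169 and 171 CPM, against 109 and 108 CPM in WT cells (log2 change 0.64, SE 0.074, adjusted p = 0.00042), Ctsl and Tfe3. Ctsl had 249 and 315 CPM, against 169 and 185 CPM (log2 change 0.66, SE 0.147, adjusted p = 0.0149), and Tfe3 had 182 and 165 CPM, against 143 and 144 CPM (log2 change 0.27, SE 0.0733, adjusted p = 0.0366). None of these groups overlapped. The calls of Ctsl and Tfe3, and among the genes called lower those of Gla, Glb1, Man2b1, Psap, Npc2 and Atp6v0d1, were lost when a library was left out. Npc2, a cholesterol carrier, had 161 and 147 CPM in KO cells with LPS, against 223 and 213 CPM in WT cells with LPS (log2 change -0.50, SE 0.117, adjusted p = 0.0183).

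**Figure D3:**
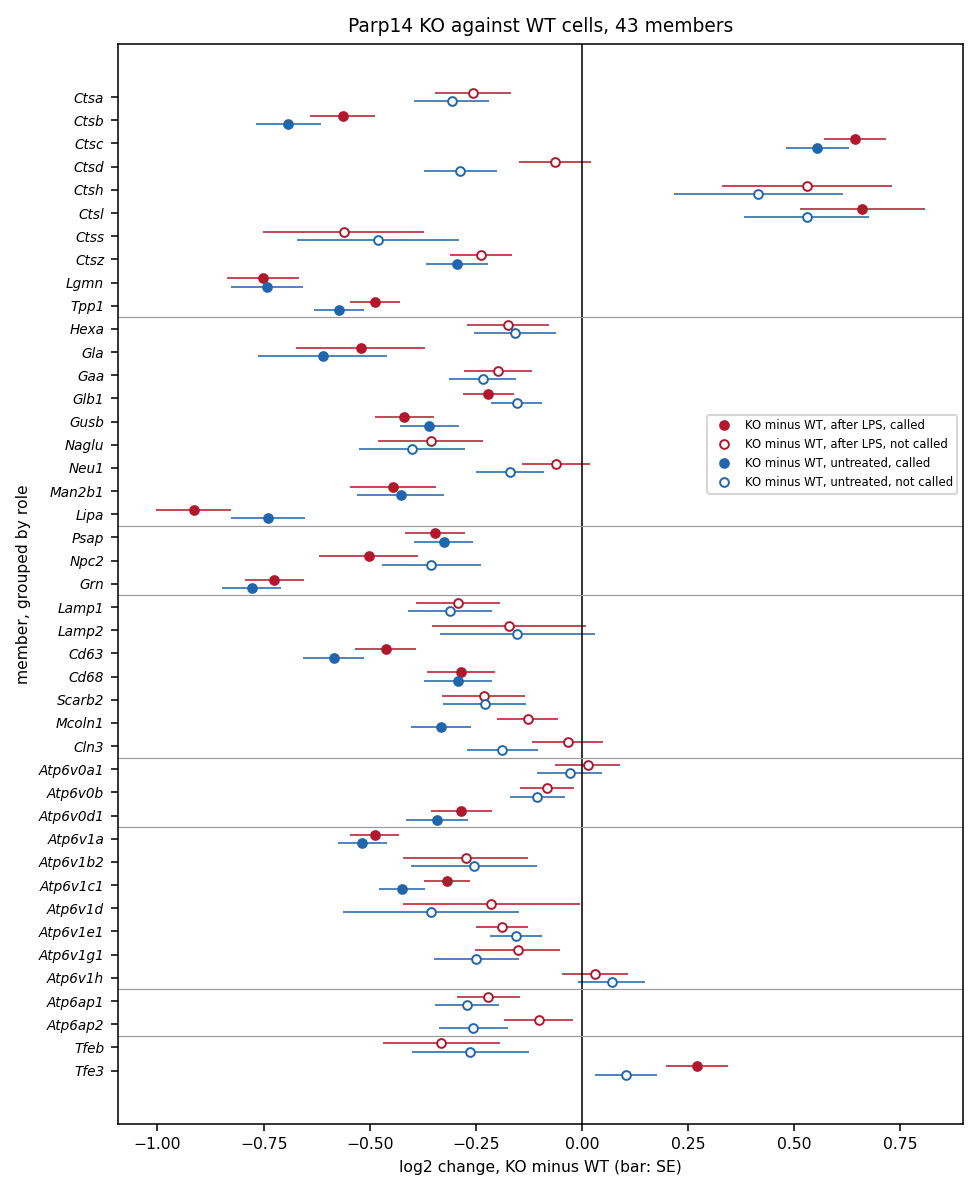
Log2 change of KO against WT cells for the 43 tested genes, grouped by role, after LPS and untreated; bars are SEs and filled points are called with the gene-read scaling. Most points lie left of 0 in both contrasts, with Lipa, Grn and Lgmn farthest left and Ctsc and Ctsl farthest right.

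Across the 43 genes the differences between KO and WT cells after LPS and without treatment, which have no library in common, had a Pearson r of 0.964 and a Spearman rho of 0.909, again as a description. KO libraries had 58.95 to 59.86% of counted alignments in genes, against 61.51 to 64.06% in WT libraries, and 33.2 to 34.9% without a unique position, against 28.6 to 32.1% in WT libraries; the part of these differences in the KO values was not tested, and the CPM used here were scaled over gene reads alone. Of the 8 macrophage markers Adgre1, Fcgr1 and Cd68, itself one of the lysosomal genes, were lower in both KO libraries than in both WT libraries of the same treatment, untreated and with LPS, and Cd14 was higher in both. Adgre1 had 76.4 and 64.7 CPM in KO cells with LPS, against 188 and 163 CPM in WT cells with LPS, and Cd14 had 2427 and 2424 CPM, against 2004 and 1941 CPM. The groups of Csf1r, Itgam, Lyz2 and Mrc1 overlapped in untreated cells, and after LPS Csf1r and Lyz2 were lower and Mrc1 higher in KO cells without overlap. The markers summed to 10350 to 11600 CPM in KO cells with LPS, against 12420 to 12560 CPM in WT cells with LPS. Lyz2 made up most of these sums, with 6051 and 7257 CPM in KO cells with LPS, against 8389 and 8267 CPM in WT cells with LPS. In untreated cells the sums overlapped, at 11660 to 14100 CPM in KO cells and 12580 to 14500 CPM in WT cells. Of 8 osteoclast markers 5 reached 1 CPM, and the 8 summed to 158 to 178 CPM in KO cells with LPS, 45.6 to 56.2 CPM in WT cells with LPS, 10.9 to 18.7 CPM in untreated KO cells and 11.6 to 17.7 CPM in untreated WT cells; Calcr was at 0 in every library. Mmp9 made up most of the higher sum, with 107 and 112 CPM in KO cells with LPS, against 6.0 and 7.63 CPM in WT cells with LPS. Dcstamp was also higher in KO cells with LPS, with 34.1 and 48.4 CPM, against 25.6 and 29.6 CPM. So was Ocstamp, with 16.1 and 17.0 CPM, against 10.1 and 14.5 CPM. Acp5, with 0.389 and 0.585 CPM, against 1.99 and 2.39 CPM, and Atp6v0d2, with 0.195 and 0.0702 CPM, against 1.53 and 1.98 CPM, were lower in KO cells with LPS. The part of these markers in the values of the lysosomal genes was not tested. In such bulk libraries fewer cells with a transcript and less of it per cell cannot be told apart.

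The fifth set of comparisons asked what the Jak inhibitor did to these genes in WT cells. With the inhibitor alone no lysosomal gene was called in limma, edgeR or DESeq2, and none had an unadjusted limma p under 0.05, where 0% of all genes were called higher and 0% lower. Changes ranged from -0.12 for Tfeb to 0.11 for Ctsh. With LPS plus inhibitor against LPS alone 0 of 43 were called by the 3 tools and none had an unadjusted limma p under 0.05, where 0.0734% and 1.04% of all genes were called higher and lower. With the replicate number as a block and the median of ratios together, Lipa was called lower (-0.18, adjusted p = 0.0441), and with the block alone it was not (adjusted p = 0.0834). The widest changes were 0.19 for Tfeb (SE 0.138) and -0.16 for Lipa (SE 0.0878). In the same contrast Socs1, an inhibitor of Jak signalling that Jak kinases induce, fell by 1.00 on the log2 scale (adjusted p = 0.00451), while Cish, another feedback gene of Jak signalling, had a change of 0.03 (adjusted p = 0.996).

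With LPS in the presence of the inhibitor Tfeb, Lipa and Neu1 fell most and Cln3 rose most. Relative to the inhibitor alone 5 were called higher and 23 lower, where 13.5% and 50.8% of all genes were; after rescaling 12 were called higher and 10 lower, where 26.4% and 32.5% of all genes were, and 5 and 10 were called with both scalings. Tfeb had 12.8 and 12.1 CPM with LPS and inhibitor, against 34.8 and 28.2 CPM with the inhibitor (log2 change -1.27, SE 0.138, adjusted p = 2.78e-05). Lipa had 351 and 342 CPM, against 753 and 671 CPM (log2 change -1.04, SE 0.0878, adjusted p = 5.01e-06). Both genes lay far below the libraries with the inhibitor alone. Neu1 had 29.4 and 28.9 CPM, against 60.4 and 56.5 CPM (log2 change -0.98, SE 0.0803, adjusted p = 3.97e-06). Cln3 had 133 and 149 CPM, against 62.4 and 71.3 CPM (log2 change 1.06, SE 0.084, adjusted p = 3.14e-06). Scarb2, Naglu, Tpp1, Gusb, Psap, Glb1 and Atp6v1a were also called lower with both scalings, with changes of -0.80 to -0.41, and Atp6v1h, Atp6v1e1, Ctsz and Tfe3 higher, by 0.19 to 0.27. The calls of Ctsz, Atp6v1h and Tfe3 were lost when a library was left out, and 2 genes were called higher without LPS and inhibitor replicate 1 and 3 without inhibitor replicate 1.

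The response to LPS with the inhibitor, minus that without it, was called for no lysosomal gene in limma, edgeR or DESeq2, and none had an unadjusted limma p under 0.05, where 0.0184% and 0.569% of all genes were called higher and lower. The widest difference was 0.31 for Tfeb (SE 0.195, adjusted p = 0.868). Over the 43 genes the 2 responses, with no library in common, had a Pearson r of 0.973 and a Spearman rho of 0.967.

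**Figure D4:**
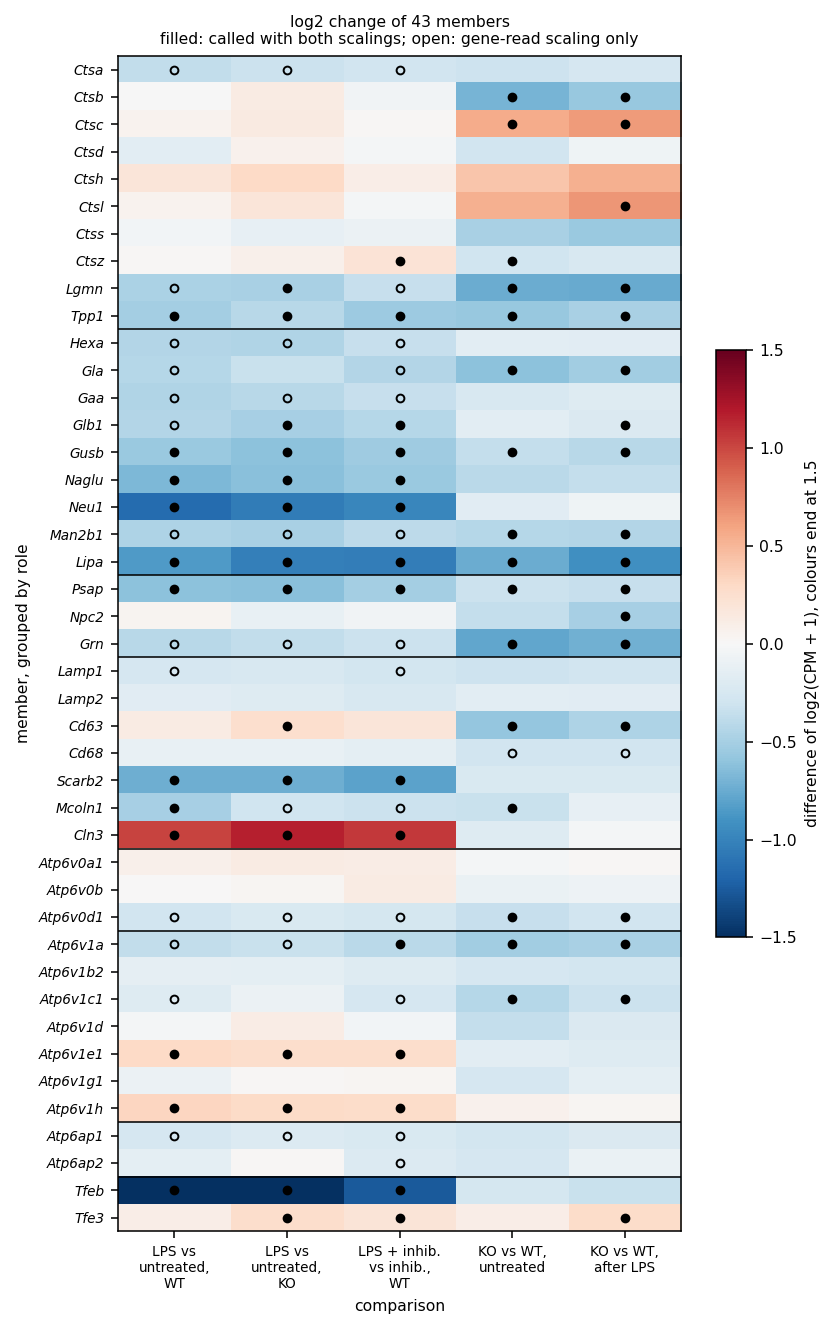
Log2 change of the 43 tested genes, in rows grouped by role, in 3 LPS responses and 2 contrasts of KO with WT cells; red is higher and blue is lower, filled dots are called with both scalings and open dots with the gene-read scaling alone. Cln3, Atp6v1e1 and Atp6v1h are red and filled in all 3 LPS responses, and Tpp1, Gusb, Lipa and Psap are blue and filled in all 5 columns.

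Set side by side, 3 genes were called higher with both scalings in all 3 LPS responses, namely Cln3, Atp6v1e1 and Atp6v1h. No share of all genes was taken for calls in several comparisons at once, higher or lower. The 8 called lower in all 3 LPS responses were Tpp1, Gusb, Naglu, Neu1, Lipa, Psap, Scarb2 and Tfeb. Of these, Tpp1, Gusb, Lipa and Psap were also called lower in KO cells in both contrasts with WT cells, which share libraries with the LPS responses. Neu1 had 25.1 and 24.9 CPM in KO cells with LPS, against 28.2 and 24.2 CPM in WT cells with LPS, and these groups overlapped. Ctsc, Ctsb, Lgmn, Grn and Cd63, called in both contrasts of KO with WT cells, had changes with LPS in WT cells of 0.05, -0.01, -0.47, -0.42 and 0.13, none called with both scalings. Lipa was lowest in KO cells with LPS, at 204 ± 13.6 CPM, followed by WT cells with LPS and inhibitor (346 ± 6.16), WT cells with LPS (386 ± 7.26), untreated KO cells (416 ± 41.9), untreated WT cells (694 ± 36.2) and WT cells with the inhibitor (712 ± 57.7; SD, n = 2 each). In this order WT cells with LPS and untreated KO cells lay within their SDs of each other, as did untreated WT cells and those with the inhibitor. WT cells with LPS and inhibitor and those with LPS lay apart by their SDs. Lipa was not called between these groups in limma without the block, edgeR or DESeq2.

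With the gene-read scaling the 13 tested genes with the 7-letter E-box form had a median LPS change in WT cells of -0.37. The 24 without it had one of -0.16. With this scaling 10 of the 13 and 11 of the 24 were called lower, where 53.6% of all genes were. With both scalings 2 and 7 were called lower and 1 each higher. In untreated KO cells the medians were -0.31 with and -0.28 without it. These values are a description of the windows shown above, and no difference between the 2 sets was tested.

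Another 74 genes of the pathway were listed, of which 69 were tested. In WT cells with LPS 9 of the 69 were called higher and 49 lower, where 13.7% and 53.6% of all genes were, and after rescaling 16 and 31, where 26.4% and 32.5% of all genes were. Sqstm1, the autophagy receptor p62, rose by 1.90 (SE 0.0912, adjusted p = 1.29e-07), Mitf by 1.10 (adjusted p = 1.31e-06) and Tfec by 0.86 (adjusted p = 0.00306), both relatives of Tfeb. Pla2g15, a lysosomal phospholipase gene, fell by 2.39 (SE 0.202, adjusted p = 4.71e-06), the heparan sulfatase gene Sgsh by 2.03 (adjusted p = 3.68e-07) and Uvrag, an autophagy gene, by 1.45 (adjusted p = 8.71e-06). Tfeb thus fell in the same libraries in which Mitf and Tfec rose, with both scalings.

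In KO cells with LPS 9 of the 69 were called higher and 46 lower, where 13.9% and 52.7% of all genes were, and after rescaling 15 and 27, where 26.7% and 33.1% were. With LPS and inhibitor in WT cells 11 were called higher and 44 lower, where 13.5% and 50.8% of all genes were, and after rescaling 15 and 28, where 26.4% and 32.5% were. Sqstm1, Mitf and Slc11a1, a metal transporter of the phagosome, rose in both, by 2.23, 1.40 and 1.13 in KO cells and by 2.11, 0.97 and 0.81 in WT cells with the inhibitor. Pla2g15, Sgsh and Uvrag fell in both, by 2.23, 2.12 and 1.58 in KO cells and by at least 1.55 in WT cells with the inhibitor. In untreated KO cells none of the 69 was called higher relative to untreated WT cells in limma and 18 were called lower, where 4.31% and 5.37% of all genes were, and after rescaling 0 and 16, where 4.38% and 4.75% were; edgeR and DESeq2 also called 0 higher, and 1 of the 69 had an unadjusted limma p under 0.05 in that direction. With the replicate block 3 were called higher and 42 lower, and no share of all genes was taken with the block. Sort1, a sorting receptor, fell by 0.94 (SE 0.16, adjusted p = 0.00517) and Slc11a1 by 0.77 (adjusted p = 0.000951). After LPS the replicate block gave 4 higher and 29 lower in KO cells relative to WT cells, with no share of all genes taken. Without the block 1 was called higher and 18 lower with either scaling. Of all genes 6.19% and 7.66% were, or 6.4% and 7.74% with the median of ratios. The higher one was Rraga, a small GTPase gene of nutrient sensing, at 0.36 (adjusted p = 0.0186), and among the lower ones were Tfec at -0.89 (adjusted p = 0.0137), Igf2r, a receptor gene for mannose phosphate tags, at -0.83 (adjusted p = 0.0339), and Sort1 at -0.74 (adjusted p = 0.0126).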

How the data were processed

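The deposited table holds CPM for each gene in each library. The authors used TopHat2 2.1.0, HTSeq and edgeR and the build mm10 (GRCm38), per the submitters' processing notes; no source used here gives the strand setting, and the kit was TruSeq RNA from 1 µg of total RNA, per the labels. CPM covered all counted alignments, including 5 HTSeq summary lines; they were rescaled here to gene reads. Multiplied out, 100% of values were whole reads within 0.02 reads. Of the table's columns, 4 per-sample columns matched no label and were not used.

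Genes that reached 1 CPM in 2 or more libraries entered limma 3.58.1 (R 4.3.3) as log2(CPM + 1), with an intensity trend and 1 model of 6 group means over 12 libraries (residual degrees of freedom 6, prior 3.54). Alternatives were median-of-ratios scaling (from genes at 5 CPM or more), the deposited scaling, adding 0.25 in place of 1 before the log, filtering at 5 CPM or not at all, the replicate number as a block, each library left out, and, on the recovered reads, edgeR 4.0.16 and DESeq2 1.42.0; the block with the median of ratios was added after seeing the data. The tests were checked on simulated reads in which a small set of genes was changed in a single group. The simulation held no replicate pairing and no shift of most genes, so it cannot speak to the effect of either on the calls.

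Labels number the libraries 1 and 2 in each group. The differences between the numbers correlated across genes in all 15 pairs of groups (Pearson r 0.468 to 0.737), so the numbers behaved like a pairing, though the labels name no shared day or culture. They name no separate cultures either, so the p-values rest on a spread between samples that may be technical. Genes were named where called with both scalings, up to 15 per comparison by size of change, with the widest change of each role group; of other pathway genes up to 3 per direction with at least 5 CPM were named. The genes and lists were chosen with earlier results of these data known. Levels per kilobase and positions use GENCODE M21 exons.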

Additional observations from a re-analysis of the deposited data

How the results depend on the processing

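Fits were repeated with other scalings, filters, pseudocounts and tools and without each library; with a library left out of a group of 2, the lone sample was assumed to vary like the other groups. With the median of ratios, edgeR and DESeq2 the lysosomal genes called higher numbered 11, 11 and 16 with LPS in WT cells, 16, 16 and 16 in KO cells, and 12, 12 and 12 with the inhibitor, and those called lower 9, 9 and 8, then 10, 8 and 8, then 10, 7 and 7. DESeq2 called 2 higher in untreated KO cells. Replicate numbers behaved like a pairing, and the block removed none of 113 called changes. No share of all genes was taken for fits with the block, edgeR, DESeq2, the deposited scaling, no filter or a library left out. The counts of these fits therefore cannot be set against the shares given above. With the replicate block 9 were called higher with LPS in KO cells, and 31 lower in KO cells after LPS. Untreated KO cells had 3 called higher and 35 lower. With the block and the median of ratios 20 were called higher with LPS in WT cells, 21 in KO cells and 18 with the inhibitor, where 11 were called lower; 3 higher and 34 lower in untreated KO cells, 31 lower in KO cells after LPS, and 1 lower with LPS plus inhibitor against LPS. The deposited scaling called 26 lower in untreated KO cells, and no filter left 3 called higher with LPS and inhibitor. With each library left out, counts higher and lower ranged over 3 to 3 and 18 to 21 for LPS in WT cells, 3 to 4 and 16 to 19 in KO cells (3 higher without KO_UT or KO_LPS replicate 1), and 2 to 6 and 18 to 20 with the inhibitor. For KO cells they ranged over 1 to 2 and 8 to 11 untreated (8 without WT_UT replicate 1, 9 without either KO_UT replicate) and over 1 to 2 and 9 to 14 after LPS (9 without WT_LPS replicate 2, 10 without KO_LPS replicate 2).

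Of 113 called changes none turned direction with the deposited scaling, the pseudocount, either filter, the block alone or a library left out. With the median of ratios (alone and with the block), edgeR and DESeq2, these turned positive. For LPS in WT cells the values were 0.0334, 0.0534 and 0.0794 for Lamp1, 0.0022, 0.0258 and 0.0519 for Atp6v0d1, 0.0902, 0.112 and 0.138 for Atp6v1c1, and 0.0378, 0.0602 and 0.0861 for Atp6ap1. In KO cells they were 0.0487, 0.0661 and 0.091 for Atp6v0d1, 0.0769, 0.0946 and 0.119 for Atp6ap1, and 0.0076 for Mcoln1 with DESeq2. With the inhibitor they were 0.0084, 0.0342 and 0.0524 for Atp6v1c1, 0.0361, 0.0625 and 0.0805 for Atp6ap1, and 0.0506, 0.0769 and 0.095 for Atp6ap2; edgeR and DESeq2 gave 0.0015 and 0.0193 for Ctsa, 0.011 and 0.0295 for Lamp1, and 0.0199 and 0.038 for Atp6v0d1. With LPS in WT cells these 3 settings put the median over all genes at -0.04, -0.02 and 0.01, in place of -0.30; no other cause was tested. Atp6v0c, with 3 to 7 reads per group, was too shallow to compare.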
